A study of Caenorhabditis elegans with 2 samples.

Results

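The Hox genes of Caenorhabditis elegans and the genes of their TALE homeodomain cofactors were examined for binding of LSY-2, a zinc finger transcription factor. They are the 6 Hox genes ceh-13, lin-39, mab-5, egl-5, php-3 and nob-1 and the 4 cofactor genes ceh-20, ceh-40, unc-62 and psa-3, taken by name, 10 of 19973 annotated protein-coding genes. Binding of eGFP-tagged LSY-2 was mapped by ChIP-seq, which sequences the DNA recovered with a tagged protein, in whole L1 larvae (the first larval stage) of strain OP367, with both sexes pooled. The strain carries the insertion wgIs367 with the tagged lsy-2 in an unc-119(tm4063) III background, and its age is given as unknown. There is 1 group with 2 biological replicates and no second condition, so every value below describes places along the genome. In whole larvae, binding in few cells and weak binding in many cells cannot be told apart.

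Hox proteins are homeodomain transcription factors that set the identity of cells along the head-to-tail axis. PBC proteins (Extradenticle in Drosophila, Pbx in vertebrates) and MEIS proteins (Homothorax in Drosophila) are TALE homeodomain factors that bind DNA beside Hox proteins, and PBC and MEIS proteins also bind each other. In C. elegans ceh-13 is the anterior, labial-like Hox gene, lin-39 acts in the mid-body and the vulval precursor cells, mab-5 in the posterior body and migrating neuroblasts, and egl-5, php-3 and nob-1 are posterior genes of the Abdominal-B type. CEH-20 and CEH-40 are PBC proteins, and UNC-62 and PSA-3 belong to the MEIS group.

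The sequences of 7 binding sites are shown first, since they include promoter peaks of 3 Hox genes and unc-62, the intron peak of mab-5 and its paired upstream peaks, and most hold the letters described with the results. Each is the 101 bases centred on a peak summit, read from the WBcel235 (ce11) genome in the direction of the named gene. Capitals mark, on either strand, the letters GAGAGA, the motif ACCGTA, the motif GACGCA and the motif TGATNNAT. The windows are chrIII:7554805-7554905 (plus strand) for ceh-13, chrIII:7534852-7534952 (minus strand) for lin-39, chrIII:7778669-7778769, chrIII:7790678-7790778 and chrIII:7792345-7792445 (minus strand) for mab-5, chrIII:12085048-12085148 (minus strand) for nob-1 and chrV:4499157-4499257 (plus strand) for unc-62.
ceh-13 promoter: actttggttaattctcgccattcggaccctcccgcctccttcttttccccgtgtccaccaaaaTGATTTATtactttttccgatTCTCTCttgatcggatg
lin-39 second promoter: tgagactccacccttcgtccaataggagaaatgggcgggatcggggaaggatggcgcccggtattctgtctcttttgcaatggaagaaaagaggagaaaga
mab-5 intron: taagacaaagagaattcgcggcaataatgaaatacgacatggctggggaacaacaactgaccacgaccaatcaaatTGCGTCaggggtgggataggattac
mab-5 upstream, nearer: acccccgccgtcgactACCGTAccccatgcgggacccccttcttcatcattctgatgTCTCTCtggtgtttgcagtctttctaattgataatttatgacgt
mab-5 upstream, farther: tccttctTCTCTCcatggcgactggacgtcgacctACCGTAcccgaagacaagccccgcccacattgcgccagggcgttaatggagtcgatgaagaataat
nob-1 promoter: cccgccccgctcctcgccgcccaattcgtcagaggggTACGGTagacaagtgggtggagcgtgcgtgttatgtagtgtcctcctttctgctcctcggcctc
unc-62 promoter: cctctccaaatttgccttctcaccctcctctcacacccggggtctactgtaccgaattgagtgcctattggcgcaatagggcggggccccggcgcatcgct

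Peaks past the authors' reproducibility threshold (IDR, the irreproducible discovery rate) stood in the promoters of 6 of the 10 genes. These were the Hox genes ceh-13, lin-39, mab-5 and nob-1 and the cofactor genes ceh-20 and unc-62. For a promoter peak the summit, its highest point, had to fall no more than 1000 bp before or 200 bp after any annotated transcript start of the gene. The share was 60.0% (95% exact Clopper-Pearson interval 26.2 to 87.8, n = 10 genes), beside 16.9% of all protein-coding genes. The count depends on the window: with 500 bp upstream and 100 bp downstream it was 2 of 10, lin-39 and unc-62, beside 13.8% of all protein-coding genes. It also depends on the number of annotated starts. unc-62 has 15, the most of the 10 genes, and a summit near any of them counts. The interval covers the counting of genes only, and no test was run on the list. The genes were chosen with earlier results of these data known, so the gap to all protein-coding genes is no independent evidence.

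In the stretch from 10 kb upstream of each gene to its end, 7 of 10 genes had such a peak (70.0%, exact interval 34.8 to 93.3), beside 41.1% of all protein-coding genes. The seventh was php-3, whose only peak is that of the nob-1 promoter, so the interval counts this 1 peak for both genes. No IDR peak was listed within that stretch at egl-5, ceh-40 or psa-3. Together the stretches cover 148.8 kb and hold 12 distinct IDR peaks, 0.0806 per kb against 0.0421 per kb of the genome. Of these 12, 6 lay in a member's promoter, 1 in an intron, 1 in an annotated 5' UTR and 4 farther upstream outside protein-coding genes. Their median pooled signal was 116, against 87.4 over all 4218 IDR peaks.

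**Figure D1:**
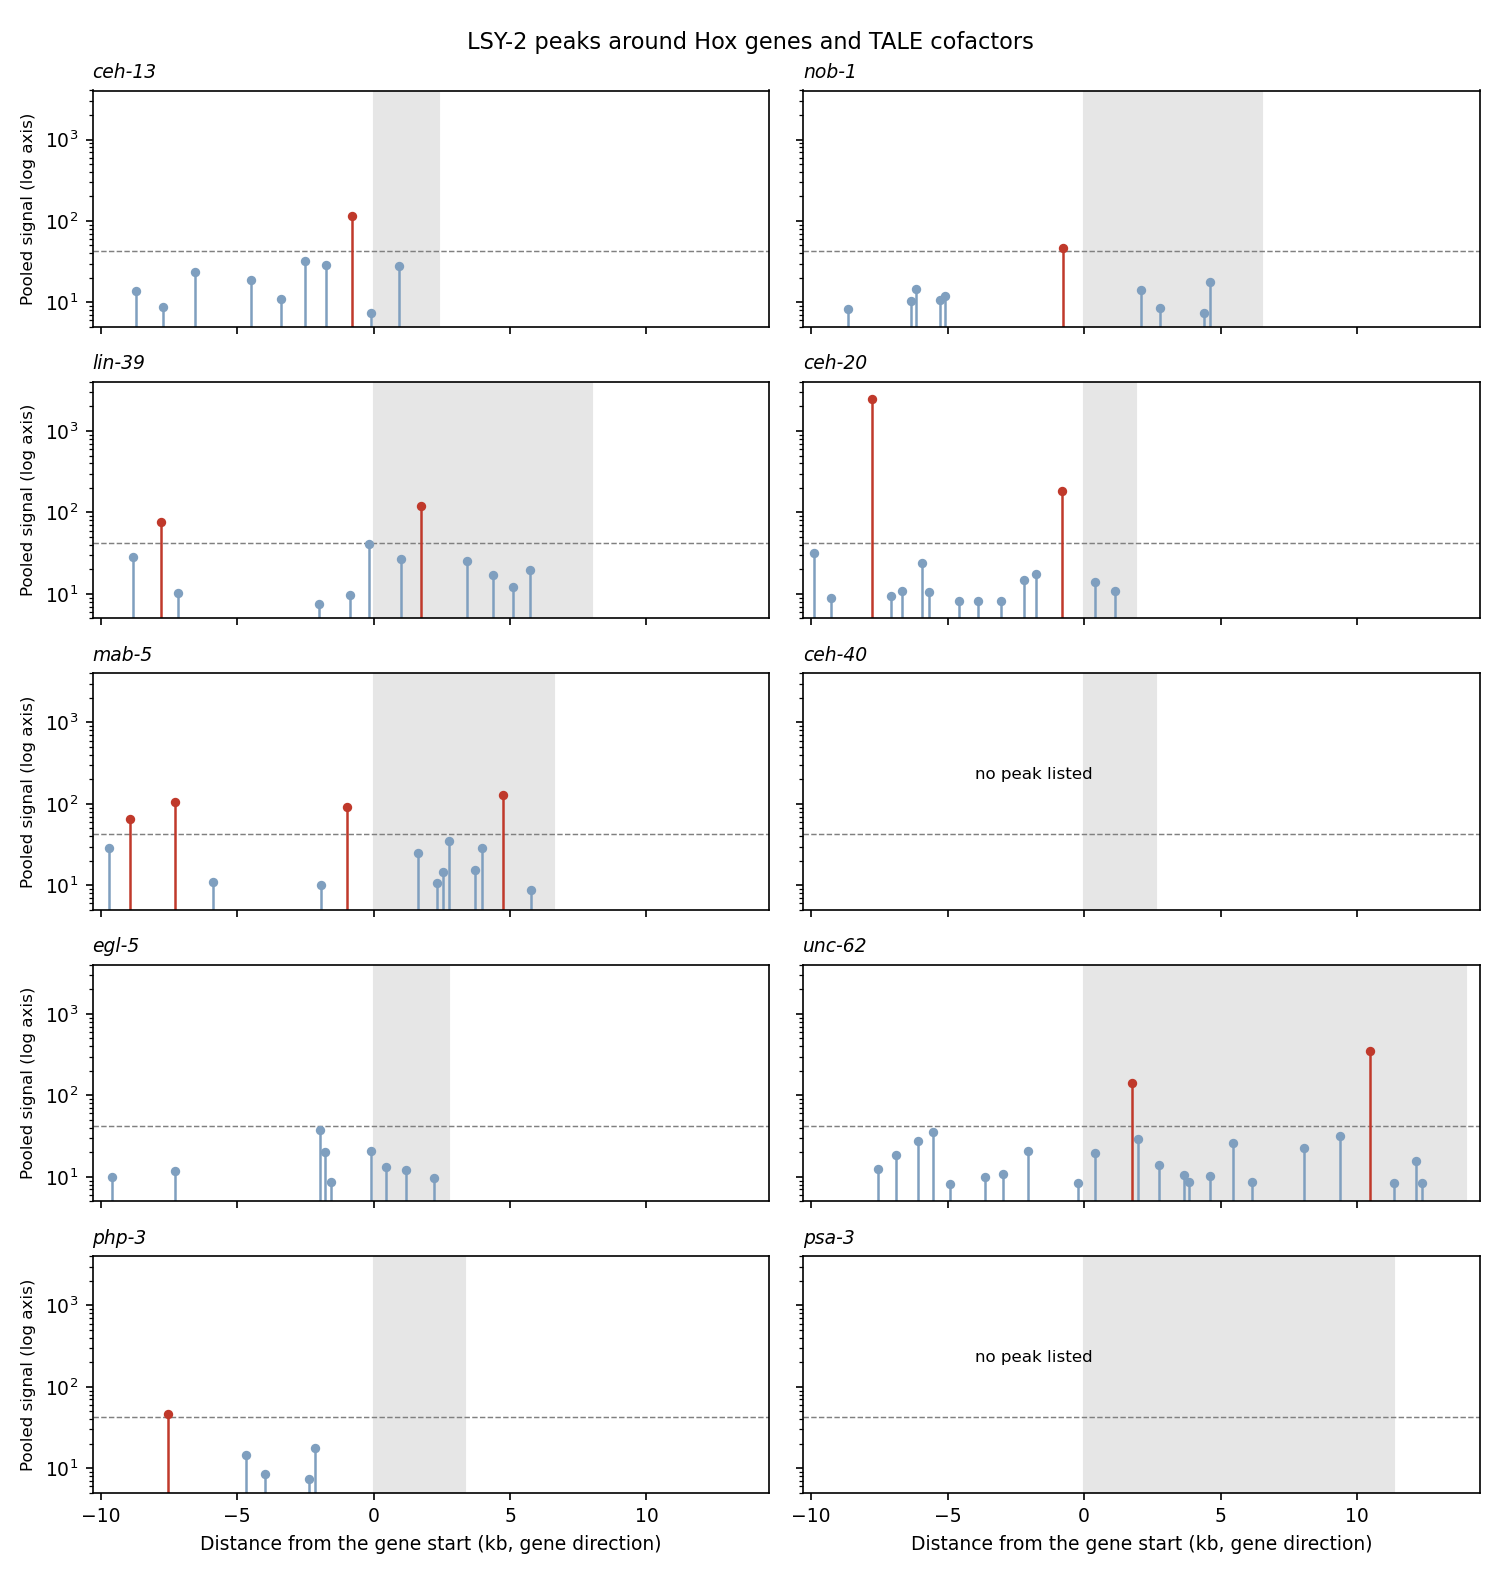
Signal of every pooled peak (log axis) against the distance of its summit from the 5' end of the gene in kb, in gene direction, for the 10 genes. Red stems are peaks of the IDR list, blue stems are weaker pooled peaks, grey is the gene and the dashed line is the lowest IDR signal, 42.2. mab-5 has 4 red stems, within this stretch egl-5 has blue stems only, and no peak is listed at ceh-40 and psa-3.

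Signals are the values that the authors' lists give per peak, for each replicate and for both pooled, and no source used here names their statistic. Over the 6 promoter peaks the order was the same in the pool and in both replicates: ceh-20, unc-62, lin-39, ceh-13, mab-5, nob-1. The replicate ranges of ceh-20 and unc-62, unc-62 and lin-39, lin-39 and ceh-13, and ceh-13 and mab-5 overlapped. Those of mab-5 and nob-1 did not. Of the 3385 protein-coding genes with a promoter peak, 33.3% had a stronger one than ceh-20 and 94.7% a stronger one than nob-1.

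lin-39 and ceh-13 lie head to head on chromosome III, with 19.0 kb and no other protein-coding gene between them. Each had a promoter peak, and 1 more IDR peak stood far upstream of lin-39. At ceh-13 (WBGene00000437, 7555660 to 7558041, plus strand) the peak at 7554685 to 7555024 had its summit 805 bp upstream of the gene start. Its signal was 69.1 in replicate 1 and 43.1 in replicate 2 (mean 56.1 ± 18.4, SD, n = 2) and 114 in the pool. The remaining 9 pooled peaks of ceh-13 were below the IDR list, the strongest 2521 bp upstream with a pooled signal of 32.7 and the replicates at 18.1 and 16.6.

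At lin-39 (WBGene00003024, 7528641 to 7536632, minus strand) the peak lay at the second of its 2 annotated starts, in an intron of the longer transcript. It spanned 7534814 to 7535007, with its summit 97 bp upstream of the second start. Its signal was 79.1 in replicate 1 and 54.6 in replicate 2 (mean 66.8 ± 17.3, SD, n = 2) and 119 in the pool. The first start had a weaker peak 159 bp upstream, at 28.3 and 9.33 in the replicates. Its summit lay inside the non-coding RNA genes C07H6.12 and C07H6.16, and the start of C07H6.16 was nearer, at 55 bp. The pooled signal of this peak, 40.8, lay just under the lowest IDR signal of 42.2. Its −log10 q value was at the list's highest, 4.16, which weaker pooled peaks shared, such as one at unc-62 with a signal of 26.4. The distal peak (7544242 to 7544581) had signals of 43.4 and 34.9 (mean 39.1 ± 6.04, SD, n = 2) and a pooled signal of 75.9. Its summit lay 7780 bp upstream of lin-39 and inside the non-coding RNA gene linc-57, whose start is 652 bp away.

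mab-5 and egl-5 are the next pair on chromosome III, also head to head, 30.9 kb apart with the protein-coding gene cyk-7 between them. From 10 kb upstream to the gene end mab-5 had 4 IDR peaks, the most of the 10 genes, and egl-5 had 0, and 2 of the 4 lay nearer to cyk-7. One peak of mab-5 (WBGene00003102, 7776835 to 7783454, minus strand) lay in its intron at 7778635 to 7778764, 4735 bp downstream of the start. Its signal was 68.4 in replicate 1 and 57.8 in replicate 2 (mean 63.1 ± 7.47, SD, n = 2) and 129 in the pool. That pooled value was the highest at a Hox gene, but replicate 1 was higher at lin-39 and ceh-13, replicate 2 was higher at an upstream peak of mab-5, and these replicate ranges overlap. The nearest protein-coding start to this summit is that of bath-15, 2686 bp away.

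The mab-5 promoter peak (7784260 to 7784599) had its summit 976 bp upstream, close to the edge of the promoter window. It had signals of 48.4 and 40.8 (mean 44.6 ± 5.33, SD, n = 2) and 90.6 in the pool. The 2 others were intergenic. The one at 7790558 to 7790897, 7274 bp upstream, had 38.5 and 65.5 in the replicates and 105 in the pool, and the one at 7792225 to 7792564, 8941 bp upstream, had 46.2, 24.3 and 65.5. The start of cyk-7 is nearer to both, at 4568 and 2901 bp. These replicate ranges overlap, so no order of the 2 upstream peaks is given.

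At egl-5 (WBGene00001174, 7814374 to 7817141, plus strand) all 9 pooled peaks of the stretch were below the IDR list. The strongest in the pool, 1976 bp upstream at 7812228 to 7812567, had 15.7 and 16.4 in the replicates and 37.3 in the pool, under the lowest IDR signal. The peak in the egl-5 promoter, 100 bp upstream, had 16.4, 5.63 and 20.6. Between the stretches of the pair, 12058 bp upstream of mab-5 and 18862 bp upstream of egl-5, stood 1 further IDR peak (7795342 to 7795681) with 33.7 and 24.0 in the replicates and 57.6 in the pool.

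The stretch takes in the upstream side only. Past the end of egl-5, by 2913 bp, stood an IDR peak (7819884 to 7820223) with 35.6 in replicate 1, 20.8 in replicate 2 (mean 28.2 ± 10.5, SD, n = 2) and 58.2 in the pool, and egl-5 has the nearest protein-coding start, 5674 bp away. ceh-13 had a peak 77 bp past its end (7557948 to 7558287), with 33.8, 19.2 and 54.9, and another 2028 bp past it. In the 10 kb past the gene end lin-39, mab-5 and ceh-13 had 2 IDR peaks each, egl-5 and ceh-20 had 1, and the other 5 genes had 0. With both sides counted, 8 of the 10 genes had an IDR peak, beside 55.9% of all protein-coding genes, and mab-5 had 6 against 1 at egl-5. Both mab-5 peaks past the gene end had snu-23 as the nearest protein-coding start, 68 and 1097 bp away. One of the lin-39 peaks past its end lay 14 bp from the start of cux-7. The other had lig-4 as the nearest protein-coding start, 3648 bp away. For the farther ceh-13 peak it was lgc-12, 2103 bp away, and for the ceh-20 peak prk-1, 1877 bp away. Distance alone puts these peaks with mab-5, lin-39, ceh-13 and ceh-20.

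php-3 and nob-1 lie in tandem on chromosome III, 236 bp apart, and share their 1 IDR peak. It spans 12084928 to 12085267, 782 bp upstream of nob-1 (WBGene00003779, 12077793 to 12084316, minus strand) and 7542 bp upstream of php-3 (WBGene00004024, 12074218 to 12077556, minus strand). Its signal was 10.1 in replicate 1 and 37.2 in replicate 2 (mean 23.6 ± 19.2, SD, n = 2). The pooled signal of 47.0 was the lowest of the 12 IDR peaks, just inside the threshold. Without replicate 2, among the 4218 strongest peaks of replicate 1, neither nob-1 nor php-3 had a peak. In the php-3 promoter window no peak was listed in the pooled list or either replicate list.

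Among the cofactors, the PBC gene ceh-20 had the strongest promoter peak of all members. At ceh-20 (WBGene00000443, chromosome III, 6979884 to 6981785, plus strand) it lay at 6978984 to 6979181, with its summit 818 bp upstream. Its signal was 110.2 in replicate 1 and 76.6 in replicate 2 (mean 93.4 ± 23.8, SD, n = 2) and 182 in the pool. A second IDR peak 7780 bp upstream (6971871 to 6972323) was the strongest in any of the stretches, rank 24 of 30000 in the pool, with 1379, 1069 and 2443. That summit lies in the promoter windows of eef-1A.1, a translation elongation factor gene, and rfc-4, a replication factor C subunit gene, whose start is 149 bp away, and 19 bp from the start of the miRNA gene cel-mir-5549, so its distance alone puts it with ceh-20.

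The MEIS gene unc-62 (WBGene00006796, chromosome V, 4497461 to 4511449, plus strand) had 2 IDR peaks, both inside the gene. The promoter peak, at 4499140 to 4499321, lay in an intron of the longer transcripts, 120 bp upstream of an internal start, with 85.2 in replicate 1, 55.0 in replicate 2 (mean 70.1 ± 21.4, SD, n = 2) and 143 in the pool. The other, at 4507766 to 4508093, had 195 and 161 (mean 178 ± 23.9, SD, n = 2) and 353 in the pool, rank 362. It was the strongest peak with a member's own start as the nearest, and its replicate range lay above that of every promoter peak of the 10 genes. Its summit lay 725 bp downstream of the last internal start of unc-62, in exon 1 and the 5' UTR of 1 of the 18 transcripts that span it, and in an intron of the other 17. At the most upstream starts of unc-62 no IDR peak was listed.

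No peak of any list stood within the stretch of ceh-40 (WBGene00000461, X, 12318126 to 12320777, minus strand), the second PBC gene, or of psa-3 (WBGene00009560, X, 15407931 to 15419298, plus strand), the second MEIS gene. Both lie on X. A stretch with no pooled peak was itself common, at 30.9% of all protein-coding genes and 29.7% of those on X. For the 1320 X genes with a stretch at least as long as that of ceh-40 it was 21.0%, and for the 119 with one at least as long as that of psa-3 it was 8.40%. ceh-40 lay in a gap of 152.4 kb between neighbouring pooled summits that holds 46 whole protein-coding genes, and 14 of 29994 such gaps were as long. Within it replicate 1 had 4 peaks and replicate 2 had 5. Whether reads could be placed there as elsewhere was not tested.

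All 12 IDR peaks had a summit within 200 bp in both replicates, as did 4179 of the 4218 IDR peaks of the genome. Replicate 1 had the higher signal at 10 of the 12. Replicate 1 was higher at 77.7% of the 4179 IDR peaks of the genome found in both replicates, with a median log2 ratio of replicate 1 to replicate 2 of 0.338. Both exceptions were at Hox genes. The log2 ratio was −1.89 at the nob-1 promoter, lower than at all but 0.168% of those peaks, and −0.77 at the nearer upstream peak of mab-5, where 2.20% were lower. At the other 10 it lay between 0.24 and 0.93.

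**Figure D2:**
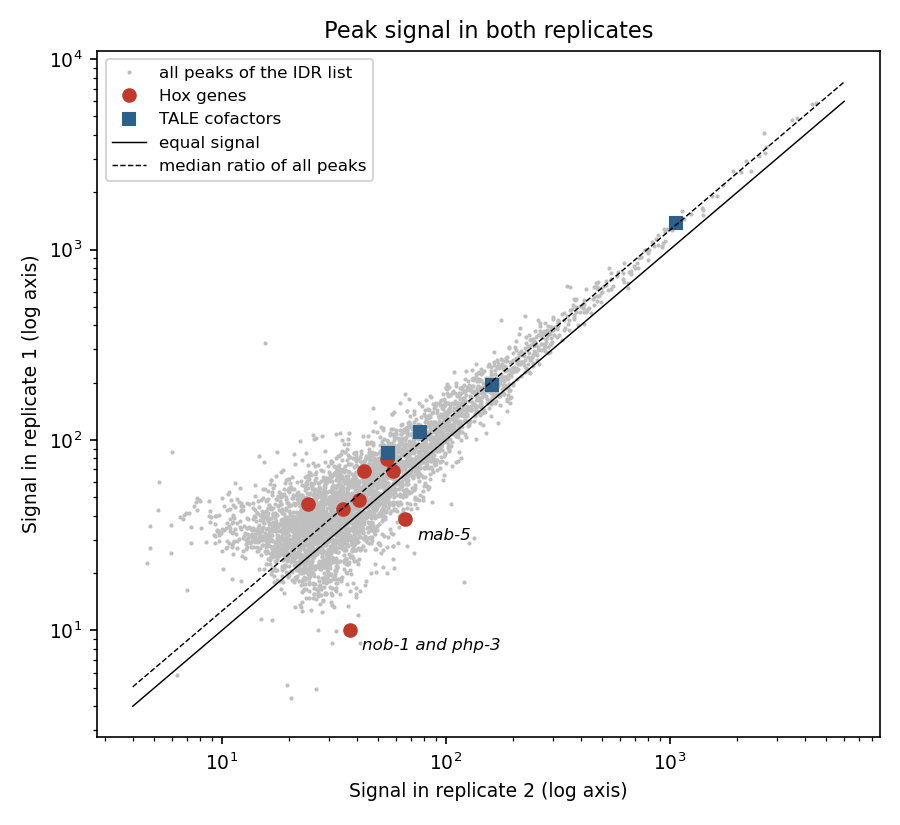
Signal in replicate 1 against replicate 2 (log axes) for the IDR peaks found in both (grey) and those at Hox genes (red circles) and TALE cofactors (blue squares). The solid line is equal signal and the dashed line is the median ratio of all peaks. The nob-1 and php-3 peak (10.1 against 37.2) and a mab-5 peak (38.5 against 65.5) lie below the line of equal signal.

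The promoter summits fell into near and far ones. At lin-39 and unc-62 they lay 97 and 120 bp upstream of a start, in each case an internal start. At nob-1, ceh-13, ceh-20 and mab-5 they lay 782, 805, 818 and 976 bp upstream. Over the 3385 protein-coding genes that had one the median was 212 bp upstream, and 17.5% (591 genes) had their nearest summit more than 500 bp upstream. No start of another protein-coding gene was nearer at any of the 6. The narrower window leaves out the 4 far ones by its construction.

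**Figure D3:**
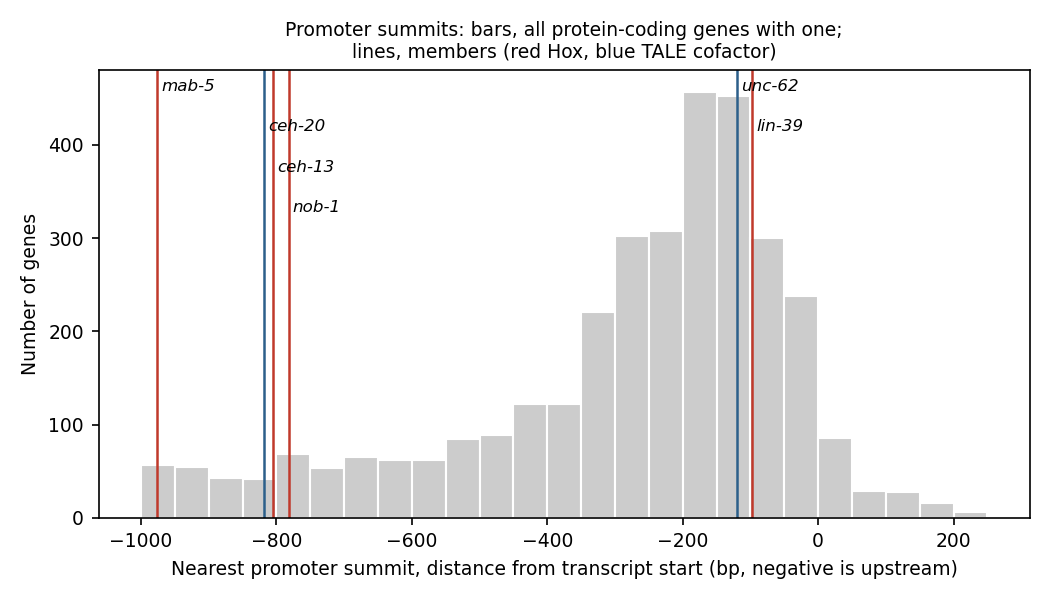
Number of protein-coding genes (bars, 50 bp each) by the distance in bp of their nearest promoter summit from a transcript start, with the 6 members that have one as lines (red Hox, blue TALE cofactor). lin-39 and unc-62 stand by the tallest bars, and the other 4 stand between 782 and 976 bp upstream.

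Peaks of the whole pooled list, weaker peaks and IDR peaks together, were also dense at most of these genes. The authors label this list as peaks and background, so these densities count list entries and not binding sites. The stretches held 94 distinct pooled peaks, 0.632 per kb against 0.299 per kb of the genome. ceh-20 had 15 (1.26 per kb), unc-62 24 (1.00 per kb), mab-5 14 (0.842 per kb), ceh-13 10 (0.808 per kb), egl-5 9 (0.705 per kb), lin-39 12 (0.667 per kb), nob-1 10 (0.605 per kb) and php-3 5 (0.375 per kb). The median over all protein-coding genes was 0.192 per kb. The density of ceh-20 was reached by 0.335% of them, that of unc-62 by 1.92% and that of php-3 by 32.1%. In the ceh-20 stretch 9 of the 15 lay within neighbouring protein-coding genes.

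Of the 94, 82 were below the IDR list, with pooled signals from 7.46 to 40.8 and a median of 12.8. Many of them may be background: at ceh-13 a pooled signal of 13.9 had a −log10 q value of 1.03, and 7.46 had 0.293. A summit within 200 bp was found in both replicates for 37 of them (45.1%), in 1 replicate for 41 and in neither for 4. Over all pooled peaks below the IDR list the share found in both was 39.3%. By place, 15 of the 82 lay in a member's promoter, 19 in an intron and 6 in an exon of a member, 33 in intergenic sequence and 9 in other protein-coding genes. A replicate summit can stand within reach of more than 1 pooled peak and then counts for each.

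**Figure D4:**
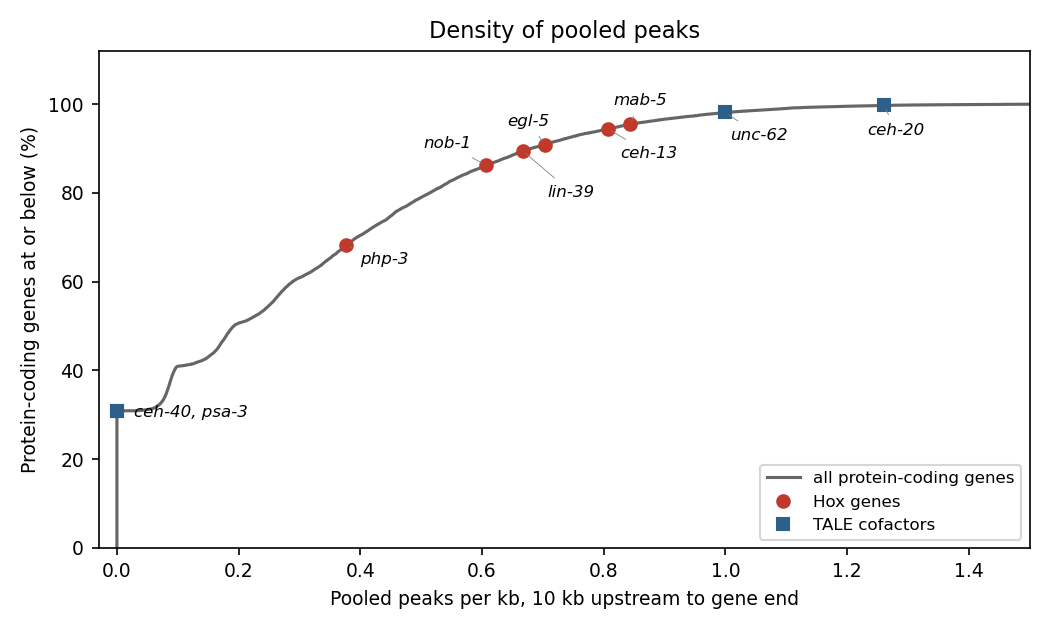
Percent of protein-coding genes at or below each density of pooled peaks per kb, from 10 kb upstream to the gene end (grey line), with the Hox genes (red circles) and TALE cofactors (blue squares) placed on it. unc-62 and ceh-20 stand at the top, at 1.00 and 1.26 per kb, and ceh-40 and psa-3 at 0. The pooled list holds peaks and background.

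Short sequences were searched on both strands in the 101 bases around each summit, as in the sequences printed above. They were chosen with earlier results of these data known, so an excess at summits over the side windows is no independent evidence. GAGAGA was found at 6 of the 12 IDR peaks, beside 28.7% of all IDR summits and 6.05% of windows 300 bp to either side. It stood at 1 of the 6 promoter peaks, that of ceh-13, and at the distal lin-39 peak, both upstream peaks of mab-5, the distal ceh-20 peak and the unc-62 peak in the 5' UTR. Outside the promoter windows of all protein-coding genes it was at 4 of 5 of these peaks and 36.1% of all such IDR summits, and inside them at 2 of 7 and 24.3%. ACCGTA was found at 4 of 12 (7.73% of all), at nob-1, both upstream peaks of mab-5 and the distal ceh-20 peak. At both upstream mab-5 peaks ACCGTA and the reverse complement of GAGAGA occur on the same strand, in opposite order.

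GACGCA was found at 1 of 12, the mab-5 intron peak (17.4% of all). TGATNNAT, a form of the joint site of Hox and PBC proteins, was found in these windows at 1 of 12, the ceh-13 promoter peak (4.81% of all and 8.48% of the side windows), and TGACAG, the core of MEIS sites, at 0 of 12 (3.53% of all). Within 100 bp of the summits TGATNNAT was at 2 of 12 (10.8% of all), TGACAG at 1 (6.78%) and GACGCA at 4 (23.0%). No 2 different motifs overlapped in the 10 of these windows that lie outside annotated exons. The 101 bases at the promoter summits of lin-39, mab-5, ceh-20 and unc-62 held none of the 5. The GC content of the 12 windows ran from 44.6% to 63.4%, with a median of 48.0% against 45.5% for all IDR summits. It was highest at nob-1 (63.4%, exceeded by 0.782% of IDR summits) and unc-62 (60.4%, exceeded by 2.09%). A match is a description of letters and not a binding site.

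Genes that act on Hox genes or downstream of them were listed as well. Of 15 regulators, 8 had an IDR promoter peak (53.3%, exact interval 26.6 to 78.7), and of 6 targets 1 had one (16.7%, exact interval 0.421 to 64.1), beside the 16.9% of all protein-coding genes. From 10 kb upstream to the gene end, 9 of 15 regulators and 3 of 6 targets had one, beside 41.1% of all. The narrower promoter window leaves out regulator summits 588 and 562 bp upstream and 193 bp downstream of a start. Both lists were chosen with earlier results of these data known. The strongest were at 3 repressors of Hox genes and a histone methyltransferase gene of the Polycomb repressive complex. sor-1 had 637 and 458 in the replicates and 1063 in the pool, sop-2 had 191, 139 and 326, mes-2 had 153, 174 and 323, and sor-3 had 90.2, 63.7 and 161. The other 4 regulators had pooled signals between 43.6 and 128. The target with a peak was egl-17, a fibroblast growth factor gene, with 40.3, 47.4 and 87.0.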

How the data were processed

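LSY-2 binding was measured by ChIP-seq in 2 biological replicates of 1 group. The authors deposited ce11 peak lists for each replicate, for the pool and after IDR. The deposited signal and −log10 q value of each peak were used as given. Per the deposited text listings, a control alignment entered each replicate and pooled list, and these lists were the parents of the IDR list. No source used here names the aligner, the caller, their versions or the IDR threshold. Each replicate or pooled list holds 30000 entries, labelled by the authors as peaks and background, and the IDR list equals the 4218 strongest pooled peaks. The depth is unknown, as no read counts come with the lists. Nearly all weak pooled peaks are 340 bp wide (93.6% of that list), so widths were not compared.

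Positions, counted from 1, were matched to Ensembl release 115 (WBcel235, the assembly of ce11), and all 10 genes matched by symbol. Peaks were placed by their summits. To a pooled peak was assigned each replicate's nearest summit, at most 200 bp away. All protein-coding genes were treated alike as background, and intervals are 95% exact (Clopper-Pearson). No test was run on the genes, which were chosen, like the motifs and the regulator and target lists, with earlier results of these data known. All 10 genes are named. From the regulators and targets up to 4 with the strongest promoter peak are named, and neighbours where their promoter window or nearest start holds a peak. The ce10 lists were not used here. Scripts used matplotlib 3.10.9, scipy 1.17.1, pandas 2.3.3 and numpy 2.4.6 under Python 3.11.15, and the window and motif searches were tested on simulated data.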

Additional observations from a re-analysis of the deposited data

How the results depend on the processing

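The count of 6 members with a promoter peak fell to 2 with the window of 500 bp upstream to 100 bp downstream, which leaves out summits farther upstream. It was 5 with the 2109 strongest IDR peaks, where the share of all protein-coding genes went from 16.9% to 11.0%. Counting instead each gene with the nearest coding start to an IDR peak, at any distance, gave 7, beside 17.2% of all protein-coding genes. This rule adds egl-5, which has the nearest start to the peak 2913 bp past its end but no IDR peak in its promoter. Leaving out 1 replicate gave 5 to 6 members with a promoter peak, 5 to 7 with a peak in the 10 kb stretch, and 12 peaks in the stretches each time. The peaks in the stretches went from 12 to 8 with 5000 bp upstream and to 15 with 20000 bp. With 10 kb past the gene end added, an alternative chosen after seeing the data, they were 20 and the members with a peak 8. The nob-1 call was lost with the 2109 strongest peaks, without replicate 2 and with the narrower window. The calls of lin-39, unc-62, php-3, ceh-40 and psa-3 held in all 7 alternatives for the promoter. In all, 94 of 107 values stayed within 1.5 times the main value or kept their call. This total includes calls at ceh-40 and psa-3, whose stretches held no peak in any list, so no promoter window could change them. By the same rule the fall from 12 to 8 peaks counted as unchanged. Below the IDR list, 27 to 50 of the 82 peaks had support in both replicates by the other matching rules. Within 100 bp of the summits GACGCA was at 4 of 12 peaks in place of 1 (23.0% of all IDR summits in place of 17.4%), TGATNNAT at 2 in place of 1 and TGACAG at 1 in place of 0. No paired analysis was possible because there is 1 group. Peak lists without read counts limit the precision of every signal.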
